A study of Mus musculus with 24 samples.

Results

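Whole-genome bisulfite sequencing of mouse bone marrow cells, with and without vitamin C, gave a pair of region lists whose positions are described here. One is named iMR and holds 8374 regions, the other is named deMR and holds 6496. Every region of both lists was taken, without a threshold, so that 14870 of the 35234 methylation regions in the series' lists were used. The rest came from sequencing of DNA pulled down with antibodies. What the names iMR and deMR stand for, the thresholds, and the libraries that were compared to make each list could not be learned from the labels, and the lists hold no methylation level, so no direction of change is read from them.

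The cells came from mouse bone marrow and had been immortalized by HOXA9. This homeobox factor blocks myeloid maturation. The cells also carried a vector for IDH1 R132H. The immortalizing gene and the mutant enzyme are shared by both groups, and the cells are a cultured line, not bone marrow itself. They grew in serum with the cytokines IL-3, IL-6 and SCF. The iMR list is attached to the untreated bisulfite sample and the deMR list to the sample given vitamin C at 0.345 mM, added at 0, 24 and 48 h before the harvest at 72 h. For the untreated cells the labels name no harvest time, and for neither group the age or sex of the source mice. Each condition has 1 bisulfite library and 1 RNA library, so a difference between the conditions has no replicate check, and no p-value is given.

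Methyl groups on the cytosine of CpG dinucleotides are removed stepwise after TET enzymes oxidise them to 5-hydroxymethylcytosine. TET enzymes need iron and 2-oxoglutarate, vitamin C keeps their iron in the reduced form, and the R132H form of IDH1 makes 2-hydroxyglutarate, which competes with 2-oxoglutarate. Bisulfite sequencing reads each cytosine as protected or not and does not tell 5-methylcytosine from 5-hydroxymethylcytosine.

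Regions of both lists began and ended on CpGs wherever this could be read, in a small part of the 8374 iMRs and 6496 deMRs. Where the reference held the sequence, the CpG was found at 239 of 239 iMR starts and 220 of 220 iMR ends, and at 136 of 136 deMR starts and 122 of 122 deMR ends. Promoters of genes with a region at the transcription start site (TSS) are shown for what a region can cover. They were picked from the genes with the 10 largest RNA changes in each direction, among those whose region reaches the promoter window, and are not the genes that changed most. The sequences are RefSeq's mouse GRCm38.p6 (mm10), each from 250 bases before to 50 after the start, 5′ to 3′ on the gene's strand, and capitals mark the CpGs inside the region.
Aff3, iMR, chr1:38627195-38627494, minus strand, and Vcan, iMR, chr13:89742463-89742762, minus strand, come first.
Aff3: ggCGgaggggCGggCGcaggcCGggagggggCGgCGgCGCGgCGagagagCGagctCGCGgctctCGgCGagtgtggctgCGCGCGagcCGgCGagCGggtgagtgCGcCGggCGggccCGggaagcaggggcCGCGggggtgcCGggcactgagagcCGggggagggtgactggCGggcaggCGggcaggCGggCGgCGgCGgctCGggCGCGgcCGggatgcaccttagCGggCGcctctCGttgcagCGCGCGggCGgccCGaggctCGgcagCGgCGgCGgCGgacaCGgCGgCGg
Vcan: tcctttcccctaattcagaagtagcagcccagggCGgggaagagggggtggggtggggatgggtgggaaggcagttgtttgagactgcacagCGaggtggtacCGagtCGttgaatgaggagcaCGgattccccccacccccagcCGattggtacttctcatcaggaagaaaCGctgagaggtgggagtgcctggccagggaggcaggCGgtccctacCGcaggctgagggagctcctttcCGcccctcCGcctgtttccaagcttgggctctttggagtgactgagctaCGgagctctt
The 1065-bp region at Aff3, a subunit of a transcription elongation complex, covered the whole window and all of its 54 CpGs. At Vcan, the matrix proteoglycan versican, a 747-bp region covered the whole window too, with 12 CpGs. At S1pr3, a sphingosine 1-phosphate receptor, a 667-bp iMR covered 13 of the window's 14 CpGs. The deMR promoters are those of Scin, chr12:40134179-40134478, minus strand, Csf2ra, chr19:61228369-61228668, minus strand, Il21r, chr7:125603179-125603478, plus strand, and Tgm1, chr14:55713039-55713338, minus strand.
Scin: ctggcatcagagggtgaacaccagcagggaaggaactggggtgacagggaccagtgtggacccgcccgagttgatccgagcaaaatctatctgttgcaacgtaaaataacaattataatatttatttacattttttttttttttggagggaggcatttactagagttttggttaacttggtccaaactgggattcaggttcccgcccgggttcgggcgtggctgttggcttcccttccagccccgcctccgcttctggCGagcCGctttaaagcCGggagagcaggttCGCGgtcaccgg
Csf2ra: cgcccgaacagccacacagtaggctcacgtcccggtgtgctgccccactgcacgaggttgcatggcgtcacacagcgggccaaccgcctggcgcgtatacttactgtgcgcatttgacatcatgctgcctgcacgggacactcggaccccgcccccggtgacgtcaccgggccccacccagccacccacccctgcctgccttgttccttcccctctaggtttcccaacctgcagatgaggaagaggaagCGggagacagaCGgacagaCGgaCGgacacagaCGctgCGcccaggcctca
Il21r: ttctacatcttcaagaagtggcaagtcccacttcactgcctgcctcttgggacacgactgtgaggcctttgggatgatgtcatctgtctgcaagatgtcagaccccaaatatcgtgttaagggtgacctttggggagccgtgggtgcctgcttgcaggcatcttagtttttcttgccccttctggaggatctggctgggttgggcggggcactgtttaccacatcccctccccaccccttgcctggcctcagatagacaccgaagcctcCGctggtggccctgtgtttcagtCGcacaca
Tgm1: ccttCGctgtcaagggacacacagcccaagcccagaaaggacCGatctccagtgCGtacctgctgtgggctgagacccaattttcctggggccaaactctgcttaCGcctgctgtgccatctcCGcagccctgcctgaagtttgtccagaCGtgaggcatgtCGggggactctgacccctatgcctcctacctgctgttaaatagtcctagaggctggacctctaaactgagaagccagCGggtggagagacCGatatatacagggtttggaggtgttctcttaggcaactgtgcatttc
The deMRs ranged from short patches to most of the window. At Scin, the actin-severing protein scinderin, the deMR was 34 bp long and held 5 of the 16 CpGs of the window. At Csf2ra, the alpha chain of the GM-CSF receptor, a 61-bp deMR held 6 of 23. At Il21r, the receptor for interleukin 21, a 139-bp deMR held 2 of the 7 CpGs of the window and ran on into the gene. At Tgm1, a transglutaminase, a 258-bp deMR covered 254 bases of the window and all 9 of its CpGs.

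On the X chromosome some promoters held a region of each list side by side. Hprt and Esx1 are shown for this, chosen after their values were seen. The Hprt window is chrX:52987828-52988127, plus strand, with the iMR's CpGs in capitals. For Esx1, a homeobox gene of the placenta and male germ line, only the stretches under the regions are given, both from the window chrX:137120277-137120576, minus strand.
Hprt: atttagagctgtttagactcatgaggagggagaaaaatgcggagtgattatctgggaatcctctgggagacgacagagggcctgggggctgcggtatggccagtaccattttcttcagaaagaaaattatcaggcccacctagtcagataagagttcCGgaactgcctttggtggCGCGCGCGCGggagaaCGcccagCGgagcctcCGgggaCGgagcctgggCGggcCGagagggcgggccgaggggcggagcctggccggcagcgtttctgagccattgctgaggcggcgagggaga
Esx1 under the iMR: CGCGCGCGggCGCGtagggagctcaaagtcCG
Esx1 under the deMR: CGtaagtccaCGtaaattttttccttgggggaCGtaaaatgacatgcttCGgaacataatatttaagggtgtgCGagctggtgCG
The 74-bp iMR of Hprt, the purine salvage enzyme used as a housekeeping gene, held 12 of the window's 22 CpGs. Esx1 had 3 iMRs and 2 deMRs within 1 kb of a start. The iMR shown was 32 bp long and the deMR shown 85 bp, with 122 bp between them.

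The iMRs were longer than the deMRs. The median iMR was 247 bp long, with quartiles of 137 and 352 bp and a range of 6 to 1349 bp. The median deMR was 167 bp long, with quartiles of 85 and 285 bp and a range of 6 to 1255 bp. Summed, the iMRs covered 2.16 Mb and the deMRs 1.28 Mb. Regions under 50 bp made up 7.13% of iMRs and 11.5% of deMRs, and regions of 50 to 100 bp 9.98% and 18.7%. Regions of 500 to 1000 bp were 7.13% of iMRs and 3.48% of deMRs. On autosomes the median iMR was 222 bp long within 1 kb of a TSS and 252 bp elsewhere, and the median deMR 197 and 165 bp. On the X chromosome both medians were lower at a TSS than elsewhere, at 204 and 228 bp for iMRs and at 134 and 204 bp for deMRs.

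**Figure D1:**
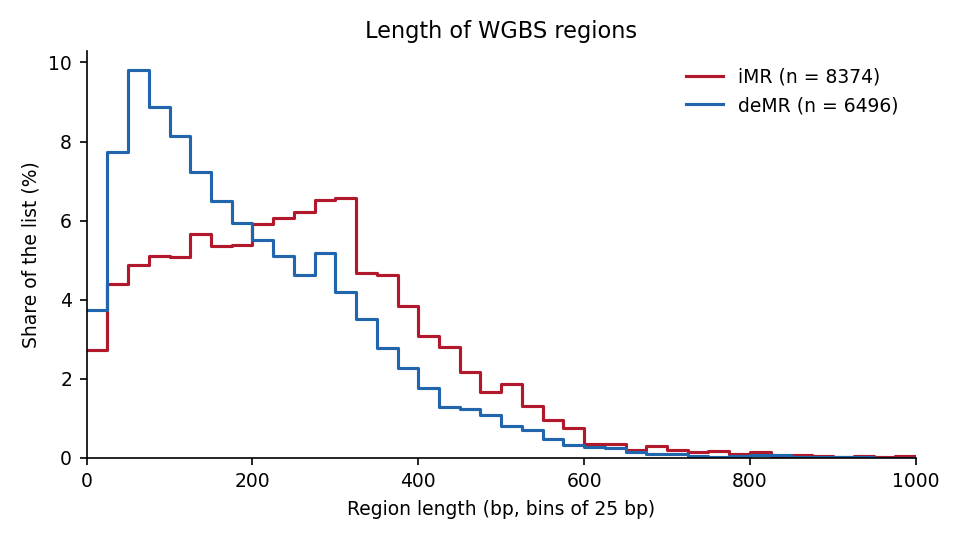
Length of the bisulfite regions in bp (horizontal axis) against the share of each list in percent (vertical axis), for the 8374 iMRs and the 6496 deMRs. The deMR distribution peaks at shorter lengths, with medians of 167 bp for deMRs and 247 bp for iMRs.

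The longest iMR, 1349 bp, lay over the start of Ednrb, the endothelin B receptor of neural crest cells. The next, 1215 bp, lay upstream of Arhgef12, a guanine nucleotide exchange factor, and the 1065-bp region of Aff3 was the fourth. The longest deMR, 1255 bp, lay inside Ncf4, a cytosolic subunit of the phagocyte NADPH oxidase. The second, 1109 bp, lay at a TSS of Dnmbp, a Cdc42 exchange factor, and the third, 930 bp, in Hoxc6. CpGs could be counted in the few regions wholly inside a promoter window. There 89 iMRs held a median of 8 CpGs (3 to 47), or 9.30 per 100 bp, and 61 deMRs a median of 5 (3 to 26), or 6.67 per 100 bp.

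Both lists were denser near gene starts than elsewhere, and the iMRs more so right at the start. Of the iMRs, 892 lay within 1 kb of a coding gene's TSS, 10.7% (exact Clopper-Pearson 95% interval 10.0 to 11.3%). Of the deMRs, 454 did, 6.99% (6.38 to 7.64%). These windows take up 1.38% of the annotated extent. The intervals cover counting error only, as do all below. At 5 kb from a TSS the lists no longer stood apart, with 16.8% and 16.9%. Only 17492 of 21887 coding genes (79.9%) have a start in the tables used, none of them on chromosome 18, so these shares of regions are too low. Shares of genes given below count only genes with such a start.

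Away from the start the order turned. Between 5 and 20 kb from a TSS there were 2.31 iMRs and 3.77 deMRs per Mb, and beyond 100 kb 2.88 and 1.12. Of the iMRs, 45.0% lay over 100 kb from any TSS used, against 22.5% of deMRs, and the median distance to a TSS was 78298 bp for iMRs and 29720 bp for deMRs. The deMRs favoured gene bodies. Spans of coding genes held 58.7% of deMRs (57.5 to 59.9%) and 44.3% of iMRs (43.3 to 45.4%), where spans are 38.2% of the extent. Neither near a TSS nor in a span were 54.1% of iMRs and 39.8% of deMRs. Within spans of 10 kb or longer, the first 10% of the body held 28.2% of 2585 iMRs and 17.9% of 2821 deMRs.

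**Figure D2:**
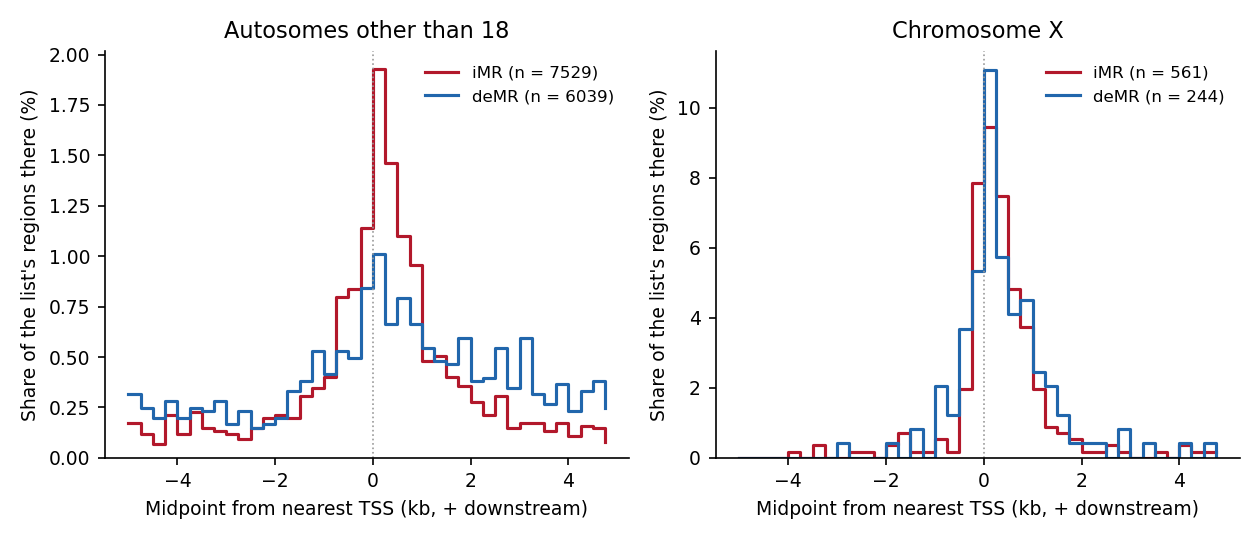
Share of each list in percent (vertical axis) by distance of the region's midpoint from the nearest coding-gene TSS in kb, positive downstream (horizontal axis), on autosomes other than 18 (left; 7529 iMRs, 6039 deMRs) and on the X (right; 561 and 244). On autosomes the iMRs have the higher peak just after the start, and on the X both lists peak there, on a scale several times higher.

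The lists shared no base: 0 of 8374 iMRs overlapped a deMR. How the lists were made is not known, so it is not known whether they could overlap at all. The 0 is therefore not read as a result. Regions of the lists did lie near each other in places. Within 1 kb of a region of the other list were 177 iMRs and 175 deMRs, and 79 of each were on the X chromosome. That was 14.1% of the X-linked iMRs and 32.4% of the X-linked deMRs, against 1.25% and 1.54% of those on other chromosomes.

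The X chromosome stood out at its promoters. Of 817 X-linked coding genes with a TSS entry, 184 had an iMR within 1 kb, 22.5% (19.7 to 25.5%), and 90 had a deMR, 11.0% (8.95 to 13.4%). On the autosomes 669 of 16457 genes had an iMR there, 4.07% (3.77 to 4.38%), and 358 a deMR, 2.18% (1.96 to 2.41%). The intervals of X and autosomes did not overlap for either list. Seen from the regions, 37.6% of the X-linked iMRs and 38.9% of the X-linked deMRs were at a TSS, against 8.72% and 5.74% on autosomes. The density of the X as a whole was not raised, at 3.29 iMRs per Mb against 3.20 on autosomes, and 1.43 deMRs per Mb against 2.56.

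The X-linked promoters with regions were largely those of expressed genes. Among X-linked genes of at least 1 RPKM (reads scaled to gene length and library size) in the untreated cells, 108 of 259 had a TSS iMR, 41.7%, and 57 a TSS deMR, 22.0%. On the autosomes the shares at that level were 1.88% and 2.20% of 7867 genes. Below 1 RPKM they were 15.3% and 6.28% of 478 X-linked genes, and 6.56% and 2.30% of 7578 autosomal ones. The most highly expressed X-linked genes with an iMR at the start were Tmsb4x, the actin-binding thymosin beta 4 (409 RPKM untreated, 524 with vitamin C), Slc25a5, a mitochondrial ADP/ATP carrier (251 and 269), and Msn, the membrane linker moesin (186 and 235). With a deMR only, the most expressed were Nono, an RNA-binding protein of paraspeckles (106 and 102 RPKM), and Ube2a, a ubiquitin-conjugating enzyme (58.5 and 58.0). Naming these genes by their level was a choice made after the values were seen.

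Genes with a region of each list at a start were mostly X-linked. There were 67 such genes, 7.85% of the genes with a TSS iMR and 15.0% of those with a TSS deMR. Over all 17492 coding genes with a start, 2.56% had a TSS deMR and 4.88% a TSS iMR. A gene can have several starts, and some pairs lay at different ones, 680939 bp apart at Magi2 and 432524 bp at Fgf13. Of the 67 genes, 41 were on the X, and 29 of these had at least 1 RPKM. The median gap between the regions was 344 bp on the X. At Hprt (109 and 116 RPKM) the iMR was centred 57 bp before the start and the 88-bp deMR 501 bp after it. At Fmr1, the RNA-binding protein lost in fragile X syndrome, a 232-bp iMR centred 23 bp before the start and a 67-bp deMR centred 173 bp after it were 87 bp apart, and the RNA level was 8.73 and 8.94 RPKM. At Pgrmc1, a haem-binding membrane protein, the deMR came first, 280 bp into the gene, with the iMR at 604 bp, and the RNA level was 44.8 RPKM untreated and 80.1 with vitamin C. Off the X, Il3ra, the receptor chain for the IL-3 in the medium, had the pair 256 bp apart (139 and 93.9 RPKM). The imprinted neighbours Peg3 and Usp29 shared 1 such pair, 969 bp apart.

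In female mammals 1 X chromosome is silenced and its promoter CpGs are methylated, except at genes that escape. A list of 9 genes known to escape in some mouse tissues was added after the X values were seen. Ddx3x (131.9 RPKM untreated), Eif2s3x (60.5), Kdm5c (53.7), Kdm6a (17.2), Pbdc1 (6.69) and Car5b (0.00866) had no region of either list at the start. Mid1 had 1 of each, Shroom4 an iMR and Utp14a a deMR. Of all 817 X-linked genes with a start, 22.5% had an iMR there and 11.0% a deMR. Ddx3x, Eif2s3x, Kdm5c, Kdm6a, Pbdc1 and Utp14a (21.0) were above 1 RPKM untreated. Among X-linked genes of at least that level, 41.7% had a TSS iMR and 22.0% a TSS deMR. With 9 genes, no difference from these shares is read. Of Y-linked RNA, Ddx3y, Eif2s3y and Kdm5d had 0 reads in both libraries and Uty had 1 read in the untreated one, and the Y chromosome held 0 iMRs and 1 deMR. The part of X inactivation in the X-linked regions was not tested.

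**Figure D3:**
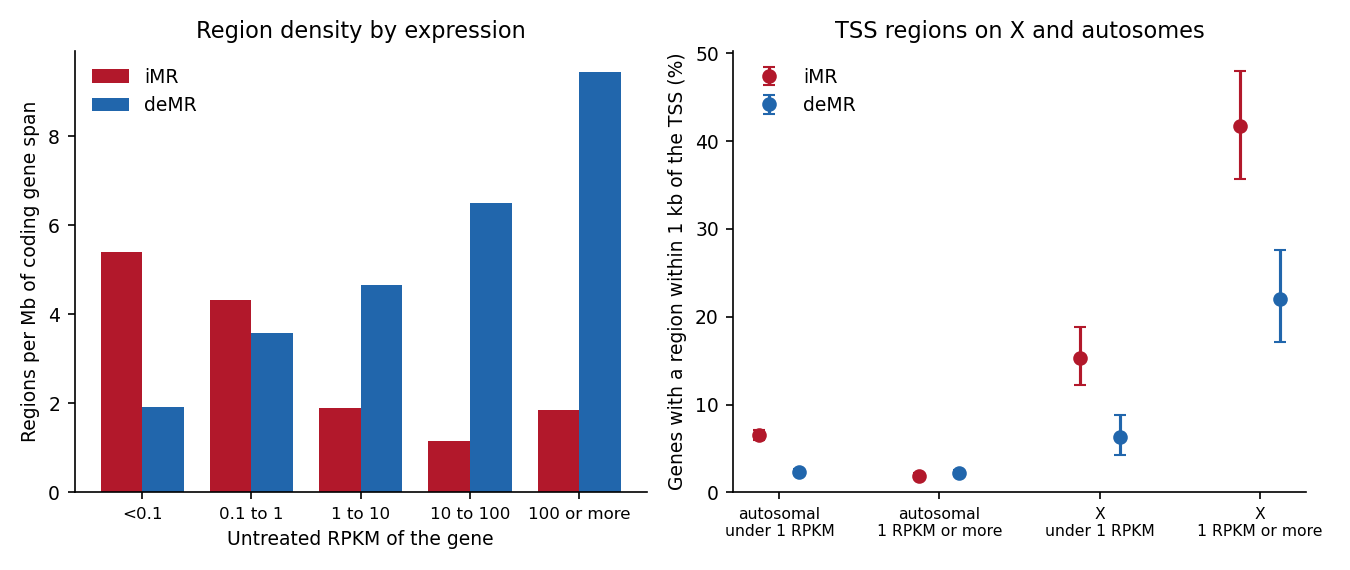
Left, regions per Mb of gene span by RNA level in the untreated cells (classes of RPKM), for iMRs and deMRs. Right, share of coding genes with a region within 1 kb of the TSS on the X and on autosomes, split at 1 RPKM, with exact 95% intervals as bars. The iMR density falls from 5.40 per Mb in the lowest class to 1.14 at 10 to 100 RPKM and is 1.84 at 100 RPKM or more, the deMR density rises from 1.91 to 9.45 and expressed X-linked genes have the highest TSS shares of both lists.

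Along the autosomes the lists were unevenly spread. Per chromosome the iMR density ran from 2.64 per Mb on chromosome 16 to 3.91 on chromosome 17, and the deMR density from 2.03 on chromosome 3 to 3.71 on chromosome 19. The ratio of iMRs to deMRs was 1.29 over all chromosomes, 0.852 on chromosome 19, 1.53 on chromosome 9 and 2.30 on the X. Both densities followed gene density across the 19 autosomes (Spearman 0.605 for iMRs and 0.649 for deMRs, a description of chromosomes that share their genes). Over 2452 autosomal bins of 1 Mb, the variance over the mean was 2.30 for iMRs and 3.75 for deMRs, and the lists' counts were weakly related (Spearman 0.141). The bin richest in deMRs, chr17:84000001-85000000, held 23 of them and 3 iMRs, with 7 of the deMRs near Thada, a gene of 8.31 RPKM untreated.

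The deMRs were the more clustered list at short range. A neighbour of the same list lay within 10 kb of 1420 deMRs, 21.9% (20.9 to 22.9%), and of 1235 iMRs, 14.7% (13.99 to 15.53%), although the deMRs were fewer. At 1 kb the shares were 4.45% and 3.51%, and at 25 kb 36.8% and 26.1%. The median gap to the next region was 121 kb for deMRs and 159 kb for iMRs, while the mean gap was longer for deMRs (391 against 305 kb). Chains of 3 or more regions with gaps of at most 10 kb held 440 deMRs in 131 chains, 6.77% of the list, and 245 iMRs in 74 chains, 2.93%. Of 1943 adjacent pairs within 10 kb, 773 joined deMRs, 634 joined iMRs and 536 joined a region of each list.

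**Figure D4:**
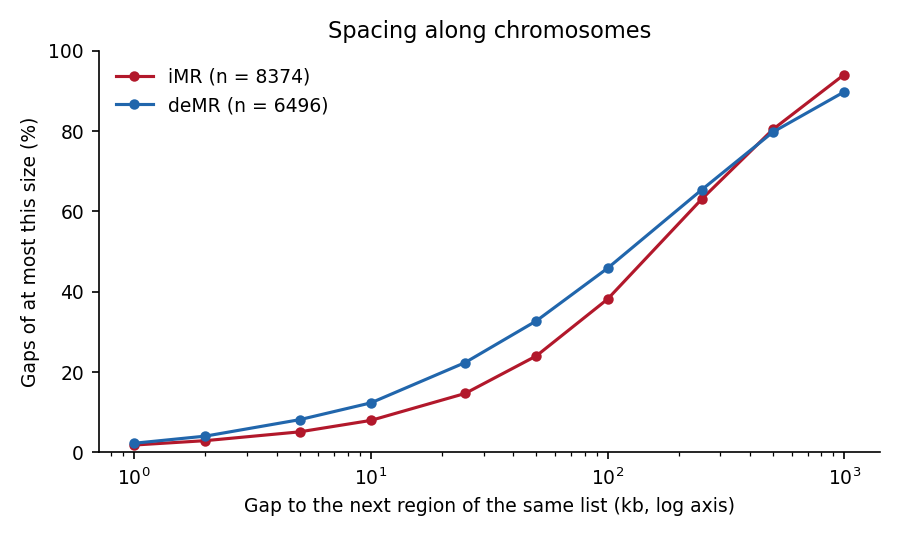
Share of gaps in percent (vertical axis) that are at most a given size in kb (horizontal axis, log scale), where a gap runs to the next region of the same list, for iMRs and deMRs. The deMR curve lies above the iMR curve up to 250 kb and below it at 500 and 1000 kb.

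Of the 5 largest iMR chains, 4 lay on coding genes. The largest was 7 iMRs in 7.10 kb over Sox3, an X-linked factor of neural progenitors (chrX:60891678-60898775). A chain of 6 in 20.3 kb lay in the alpha protocadherin cluster on chromosome 18, where many coding spans overlap. Chains of 5 covered Esx1 (4.77 kb, chrX:137118981-137123745) and Hand1, a heart and placenta factor (11.1 kb, chr11:57827306-57838357), and 1, spread over 33.7 kb, lay outside genes near Srrm4, a neuronal splicing factor. Sox3 and Hand1 RNA was at 0 RPKM in both libraries, and Esx1 was at 0.0416 and 0.0379. Esx1 also had 3 deMRs in the span or within 5 kb. Chains of 4, named here after their values were seen, included Ptprt, Hoxd3, Pax6, Cbln1 and Sall1. Ptprt, a receptor phosphatase best known in brain, differed from these in its RNA level, at 42.3 and 41.6 RPKM, with its 4 iMRs in 7.56 kb at the gene's 5′ end.

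Of the 5 deMR chains taken as largest, 3 lay inside expressed genes. More chains held 5 deMRs than are named here, and those of shortest span were taken. Chains of 5 left out included those in Rbm47 (0.628 RPKM untreated), Xxylt1 (11.1) and Tec (46.4). A chain of 6 in 12.8 kb lay in Ston2, an endocytic adaptor with 6.58 RPKM untreated (chr12:91735734-91748496), and another of 6 in 22.4 kb at chr8:126835740-126858100, with no coding gene within 50 kb. Chains of 5 lay in Ezr, the membrane linker ezrin, with 65.8 RPKM (6.92 kb, chr17:6742314-6749234), and Plxnd1, a semaphorin receptor, with 34.4 RPKM (9.34 kb, chr6:115967643-115976983). A further chain of 5 at chr14:76694051-76703600 again had no coding gene within 50 kb.

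Counted by gene, 3100 coding genes (14.2%) had an iMR in the span or within 5 kb and 3359 (15.3%) had a deMR. The 771 genes with both were 24.9% of the first set and 23.0% of the second. Genes with regions were long, with a median span of 50.9 kb for iMR genes and 45.1 kb for deMR genes against 17.2 kb for all. The genes richest in iMRs were large and mostly silent. Overlapping protocadherin models on chromosome 18 had 19 to 23. Rbms3 and Cdh13 had 16 each and Tenm2 and Ctnna3 12 each, at levels between 0 and 0.00298 RPKM. Cdh13, Tenm2 and Ctnna3 encode adhesion proteins.

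Most of the genes richest in deMRs that are named here had RNA above 1 RPKM, with Rbm47 as the exception. Tiam1, a Rac exchange factor, had 19 deMRs and 1 iMR, with 33.1 RPKM untreated and 45.4 with vitamin C. Runx1, a master factor of blood stem cells, had 11 and no iMR (52.5 and 66.3 RPKM). Rbm47, an RNA-binding protein, and Foxp1, a forkhead factor of lymphoid and myeloid cells, had 10 each. The level of Rbm47 was 0.628 and 0.572 RPKM. The kinase Tec and the ETS repressor Etv6 had 9 each and no iMR, at 46.4 and 90.6 RPKM untreated.

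RNA level separated the lists inside genes. In spans of genes below 0.1 RPKM there were 5.40 iMRs and 1.91 deMRs per Mb. From 1 to 10 RPKM there were 1.88 and 4.65, and at 100 RPKM or more 1.84 and 9.45. The deMR density rose over all 5 classes, and the iMR density fell over 4 of them and was higher again in the highest. At gene starts, 230 of 434 genes with a TSS deMR (exact 95% interval 48.2 to 57.8%) had at least 1 RPKM untreated, near the 50.0% of all 16253 genes with a start and an RNA value. Of 826 genes with a TSS iMR, 31.0% did (27.9 to 34.3%), and 22.9% on autosomes alone.

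Few genes with a region at the start changed 2-fold in RNA between the single libraries. In bulk RNA, fewer cells of a type and less RNA per cell cannot be told apart. Of 10436 genes measured at 1 RPKM or more in either library, 2.38% were at least 2-fold higher with vitamin C and 1.92% lower, on the log2(RPKM + 0.5) scale. Among 237 measured genes with a TSS deMR, 10 were higher and 8 lower. Among 258 with a TSS iMR, 2 were higher and 9 lower. The median log2 change was -0.01 for the deMR genes and -0.05 for the iMR genes, against -0.04 for all. With regions anywhere in the span or within 5 kb, 56 of 2086 deMR genes were higher and 65 lower, and 16 of 782 iMR genes were higher and 28 lower. At the start, the exact intervals of all 4 shares cover those of all genes. For regions in or near the gene, the lower shares were 3.12% (2.41 to 3.96%) for deMRs and 3.58% (2.39 to 5.13%) for iMRs, above the 1.92% of all genes, with intervals that cover counting of genes only.

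The individual changes had no common sign. With an iMR, Klf2, a quiescence factor of lymphocytes and myeloid cells, went from 7.46 to 40.5 RPKM, its 248-bp region centred 969 bp into the gene. Aff3 went from 8.13 to 2.99 RPKM and Vcan from 4.15 to 7.65, although both promoters were wholly covered. Gm1110, with a 549-bp iMR centred 773 bp before the start, had the lowest ratio, from 10.1 to 0.985 RPKM. With a deMR, Gdf15, a stress-induced cytokine, went from 0.660 to 5.80 RPKM (region centred 532 bp into the gene). Scin went from 28.6 to 79.0, Csf2ra from 13.9 to 25.9 and Il21r from 5.97 to 2.29 RPKM. Of the authors' deposited table of genes higher with vitamin C, 422 of 450 were matched, and 23.9% had a deMR near and 9.72% an iMR. Of the 202 matched among 221 genes in the authors' deposited table of lower genes, 34.2% had a deMR near and 17.8% an iMR. Over all coding genes of at least 1 RPKM in either library, 20.8% had a deMR near and 7.81% an iMR.

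Some gene classes of development had iMRs in a larger share of genes than the 14.2% of all coding genes, and denser per Mb. Since classes differ in gene length, the density per Mb of the class's spans stands beside the share. Over all coding genes 15.3% had a deMR, and there were 3.61 iMRs and 3.71 deMRs per Mb. Of 39 Hox genes, 48.7% had an iMR and 28.2% a deMR, at 42.1 and 22.1 per Mb, led by Hoxd3 with 5 iMRs and 3 deMRs and Hoxa10 with 3 iMRs. Neighbouring Hox genes share regions, and the class held 19 iMRs and 10 deMRs. Among 167 other homeobox, Sox, Fox, Gata, Tbx and Pax factors 49.7% had an iMR (14.9 per Mb) and 23.4% a deMR (6.61 per Mb), with 6 iMRs at Sox3 and 4 at Pax6, the eye and brain factor. Of 39 Wnt ligands and receptors, 33.3% had an iMR and 5.13% a deMR, at 9.16 and 1.31 per Mb. The clustered protocadherins, adhesion proteins of neurons, had an iMR in 75.4% of 57 genes, but their spans overlap and the genes share 23 iMRs.

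In other classes share and density differed in their distance from all genes. Of 26 glutamate receptor genes, 80.8% had an iMR and 11.5% a deMR, yet the iMR density was 3.95 per Mb, close to that of all genes, and the deMR density was 0.312. Grik3, a kainate receptor, and Grin2a, an NMDA receptor subunit, had 4 iMRs each, at 0.00307 RPKM or less. Collagens had an iMR in 43.2% of 44 genes (4.96 per Mb) and a deMR in 13.6% (1.37 per Mb). Imprinted genes, expressed from 1 parental copy, had both kinds: 51.7% of 29 had an iMR (12.7 per Mb) and 44.8% a deMR (5.57 per Mb), with 6 iMRs and 1 deMR at Gnas, the stimulatory G protein, and 3 and 1 at Igf2r.

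Several classes of blood cell genes had a deMR in more than the 15.3% of all coding genes. Among coding genes of at least 1 RPKM in either library that share was 20.8%. Other blood cell classes were lower, with 5.56% of 18 late granule genes and 6.25% of 16 T and NK cell genes. Mast cell and basophil genes had 7.69% of 13, dendritic cell genes 10.0% of 10 and erythroid genes 0 of 11. B cell genes had a deMR in 36.4% of 11. JAK-STAT and SOCS genes, which relay cytokine receptors, had a deMR in 10 of 19 (20.4 per Mb) and an iMR in 0 of 19, for which the exact interval allows up to 17.6%. Stat3 had 4 deMRs, Jak1 3 and the phosphatase gene Ptpn6 3, with untreated levels of 37.5, 44.1 and 195 RPKM. Of 24 myeloid transcription factors 45.8% had a deMR (22.4 per Mb) and 20.8% an iMR (2.87 per Mb), among them Irf8, a monocyte factor, with 4 deMRs and levels of 8.58 and 2.58 RPKM. Cytokine and growth factor receptors had a deMR in 38.5% of 26 genes (9.92 per Mb) and an iMR in 3.85% (1.65 per Mb). Primary granule genes had a deMR in 5 of 10 (19.8 per Mb), but these 5 genes share 4 deMRs. An iMR was found in 0 of 10, for which the exact interval allows up to 30.9%. Those with a deMR included Mpo, the myeloperoxidase gene (796 and 131 RPKM), and Elane, neutrophil elastase, where it lay at the start (47.5 and 38.6 RPKM). Of the 20 genes of the stem cell and HOXA9 programme, 60.0% had an iMR (11.3 per Mb) and 20.0% a deMR (6.20 per Mb), so that both densities were above those of all genes. Its Mecom, silent here, had 4 iMRs, while Erg (43.9 and 38.4 RPKM) had 2 iMRs and 5 deMRs. The 1110 olfactory receptor genes had few of either, 2.52% and 0.450%. The lists of genes were chosen with results of these data known, and no class was tested.

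**Figure D5:**
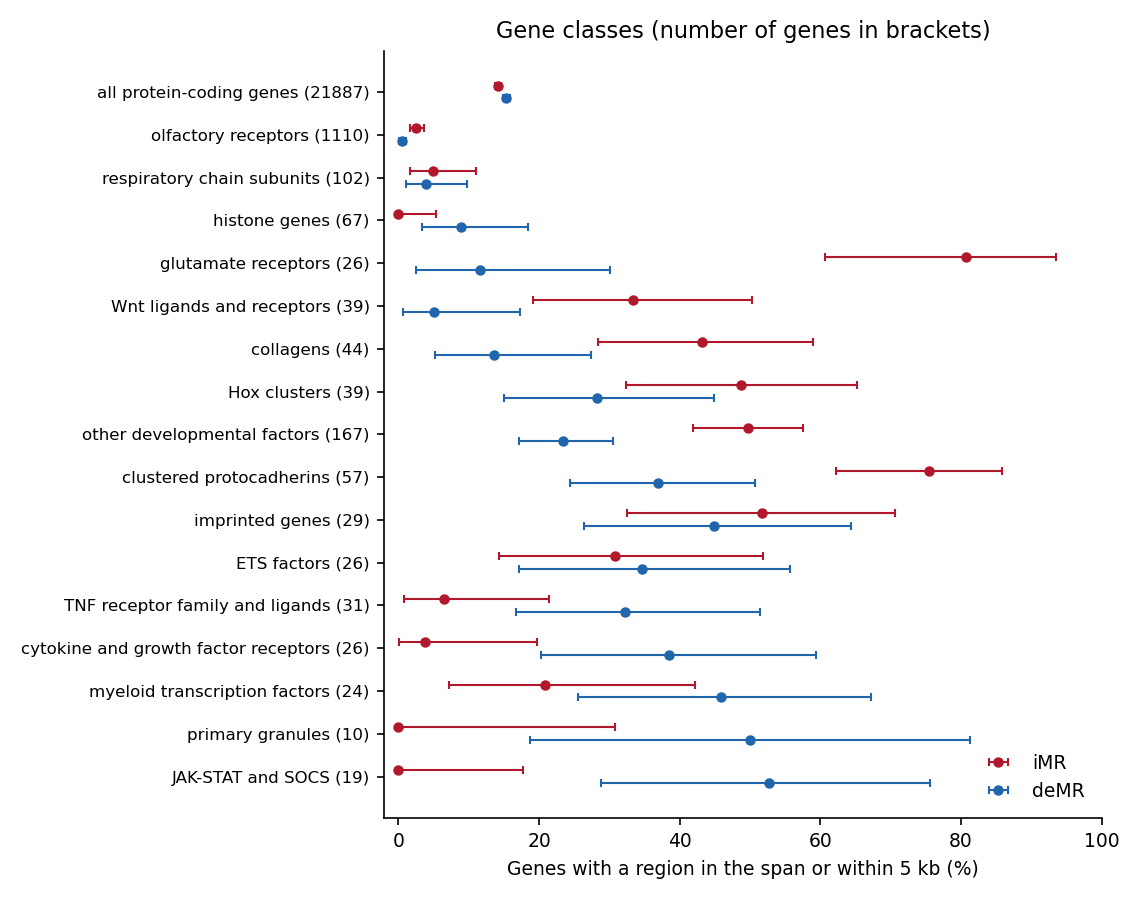
Share of the genes of each class shown, in percent, with a region in the span or within 5 kb, for iMRs and deMRs. Bars are exact 95% intervals, with the number of genes in brackets, and not all classes counted are shown. Among those shown, glutamate receptors and protocadherins have the highest iMR shares (80.8% and 75.4%). JAK-STAT and primary granule genes have the highest deMR shares shown (52.6% and 50.0%), with no iMR. RUNX and C/EBP genes, not shown, had a deMR in 53.85% of 13 and an iMR in 23.1%.

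Both lists lay near miRNA genes in a few places. Of 1005 hairpins, 14 had an iMR within 1 kb and 21 a deMR, with 1 and 6 of them overlapping a region. For coding genes, measured at the TSS instead, 4.88% of 17492 had an iMR within 1 kb and 2.56% a deMR. Clustered hairpins share regions and are not independent. Mir290a, Mir290b, Mir292, Mir292b and Mir291b share the same iMR, and Mir497, Mir497b and Mir195a the same deMR. A 43-bp deMR, chr11:70234752-70234794, lay inside the hairpin of Mir497 and 247 bp from Mir195a. A 69-bp deMR, chr6:31063107-31063175, lay 13 bp from Mir29b-1 and 359 bp from Mir29a, miRNAs that target DNA methyltransferases and collagens. A 176-bp iMR, chr7:3218754-3218929, lay 45 bp from Mir290a in the embryonic stem cell cluster. The mature sequences from RefSeq (mm10) are shown for the shared seeds, bases 2 to 8, in capitals: the members of each deMR pair have the same seed.
miR-29a-3p: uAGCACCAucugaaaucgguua
miR-29b-3p: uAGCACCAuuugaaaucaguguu
miR-497a-5p: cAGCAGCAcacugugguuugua
miR-195a-5p: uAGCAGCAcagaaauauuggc
miR-290a-3p: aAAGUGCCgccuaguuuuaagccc

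Promoters with regions were compared by letters. The 300-base windows of all 21238 promoters held a median of 13 CpGs, those overlapped by an iMR 18 (335 windows) and those overlapped by a deMR 13 (154 windows). Windows under 5 CpGs were 28.4% of all, 3.88% of the iMR windows and 8.44% of the deMR windows. Regions began and ended on CpGs where these could be read, and those read whole held at least 3. A window poor in CpGs could thus hardly be overlapped, so the CpG contrast with all windows is not read as a result. The letters GGGCGG, the core of the site of SP and KLF factors, were found on either strand in 46.2% of all windows, 61.2% of iMR windows and 55.8% of deMR windows. These letters hold a CpG themselves, so the same limit applies. The letters GGAAGT, a core bound by ETS factors such as PU.1, were in 24.8%, 18.5% and 25.3%. A match is a description of the window, not of a bound site.

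The lists also differed under the series' other maps. The enhancer mark H3K4me1 of the untreated cells lay on 44.9% of deMRs and 5.83% of iMRs, where its peaks take 6.78% of the extent. As a share of those peaks, 4.32% held a deMR and 0.824% an iMR. Peaks of PU.1, the myeloid master factor, in the untreated cells lay on 14.3% of deMRs and 1.41% of iMRs (0.763% of the extent), and 1.51% and 0.193% of the peaks held one. The PU.1 peaks listed with vitamin C, fewer in number, lay on 5.88% and 0.442% (0.255% of the extent), and 1.62% and 0.162% of them held one. The promoter mark H3K4me3 of the untreated cells lay on 20.3% of deMRs and 8.26% of iMRs (2.03% of the extent), and the active mark H3K27ac on 22.9% and 4.97% (1.92%). Of the H3K4me3 peaks 2.83% held a deMR and 1.498% an iMR, and of the H3K27ac peaks 3.87% and 1.10%. The vitamin C peaks of H3K4me1, H3K4me3 and H3K27ac lay on 30.4%, 26.55% and 28.1% of deMRs. They lay on 3.92%, 8.825% and 4.82% of iMRs and took 4.01%, 2.03% and 1.90% of the extent. Of the antibody-based region lists, the MeDIP deMRs overlapped 178 bisulfite deMRs (2.74%) and 5 iMRs (0.0597%), and the MeDIP iMRs overlapped 6 deMRs (0.0924%) and 60 iMRs (0.716%). In the other direction, 4.64% of the MeDIP deMRs held a bisulfite deMR and 1.27% of the MeDIP iMRs a bisulfite iMR. Most regions of either method were thus in 1 list alone.

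The RNA libraries held 86804487 reads untreated and 111453443 with vitamin C, and no source used here gives the depth of the bisulfite libraries. All 9 myeloid progenitor markers were present, from 32.1 to 3062 RPKM untreated and from 5.07 to 1487 with vitamin C. The highest was Hoxa9, the gene that immortalized the cells, so its level does not speak to cell type. Next came Ctsg, at 2101 and 1136 RPKM. Of markers of other cells, Ms4a1, Cd3e, Epcam and Krt8 were at 0 in both, while Hbb-bs, a beta globin of red cells, stood at 340 and 380 RPKM. The part of differing cell states in the region lists was not tested.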

How the data were processed

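The bisulfite region lists hold chromosome, start and end, deposited by the authors without values. Per the submitters' processing notes, CASAVA 1.8.2, Novoalign 3.02.08, SAMtools 0.1.8 and 0.1.16, Picard and MACS2 were named for these samples and mm10 was the build. No source used here gives their roles. Starts were counted from 0 in the lists and are printed from 1. Of RNA, the authors deposited read counts per gene, as whole numbers, beside RPKM, for 1 library per condition. Histone peaks come with a p-value or q-value that the authors deposited, and factor peaks with a score that the authors deposited. Neither was used beyond the peak positions.

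A region was placed at a TSS or in a gene by overlap of 1 bp or more with the window, and 5 kb was added on both sides of spans. RNA was matched to 20226 of 21887 coding genes, 364 of them by an older symbol. The log2 change used a pseudocount of 0.5 RPKM and genes of at least 1 RPKM in either library. With 1 library per condition there was no test between conditions, and shares carry exact Clopper-Pearson 95% intervals for counting error only. Members and gene lists were chosen with earlier results of these data known. Named genes were, per list, the 10 with the most regions, the 5 largest chains, the 10 highest and 10 lowest changes among TSS genes of at least 5 RPKM, up to 4 members per class, the 5 longest regions and genes with both regions at the TSS. Others are said to be chosen after their values were seen. Exons, introns and repeats were not analysed here. Some genes that the naming rule selects are not reported here. Alternatives were other windows and distances, merged regions, other thresholds and autosomes alone. The counting code was tested on simulated data. Python 3.11.15, pandas 2.3.3, NumPy 2.4.6, SciPy 1.17.1 and matplotlib 3.10.9 were used.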

Additional observations from a re-analysis of the deposited data

How the results depend on the processing

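No paired analysis was possible because each condition has 1 library, and leaving out a replicate was not possible either. Of 80 alternatives, 42 left a share inside its counting interval or a count close to its first value, 38 did not, and 12 of the 80 were added after seeing the data. Values are iMR then deMR. The share within 1 kb of a TSS was 16.8% and 16.9% with a 5-kb window, 12.9% and 9.70% with all annotated genes, and 8.72% and 5.74% on autosomes. The order of the lists was lost with the 5-kb window. The share in gene spans was 55.1% and 68.8% with all annotated genes. A neighbour within 5 kb was found for 9.66% and 15.0%, within 25 kb for 26.1% and 36.8%, and within 10 kb after merging regions under 500 bp apart for 13.4% and 20.5%. On autosomes the iMR share was 13.7%. TSS genes at or above 5 RPKM were 22.5% and 39.6%. The deMR share at 1 RPKM was 62.0% with a 5-kb window, and the iMR share 22.9% on autosomes. Genes 2-fold higher with a TSS iMR were 4 with a pseudocount of 0.1 and 4 with a 5-kb window, and 18 were lower with that window. With a TSS deMR, 3 were higher and 1 lower at 5 RPKM or more, and 25 higher and 23 lower with the 5-kb window. Under marks by midpoint, H3K4me3 was on 7.05% and 17.6% untreated and 7.48% and 22.8% with vitamin C, H3K27ac on 4.20% and 20.6%, and 4.13% and 25.3%, and PU.1 on 0.716% and 11.8%, and 0.251% and 4.68%. The lists carry no depth or level, and the part of coverage in which regions were listed was not tested.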
